A study of Homo sapiens with 6 samples.

Results

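*PHLDA2* and 6 further genes, *CDKN1C*, *NAP1L4*, *MEST*, *PEG10*, *GNAS* and *SNRPN*, were followed in HEK293T cells that over-expressed the transcription factor *USF1*. The genes were taken by name, as a set of imprinted genes together with *NAP1L4*, the neighbour of *PHLDA2* on the short arm of chromosome 11. Every probeset that the platform annotation assigns to 1 of them and to no other gene was used. *PHLDA2* was singled out because its value was among the largest rises after *USF1* over-expression, so the differences of these 7 genes between USF1 and Empty vector cells are given as a description, without p-values. Of the 7 genes, 4 had probesets assigned to them alone, with 10 of the 16569 deposited probesets. These were 1 for *PHLDA2*, 1 for *NAP1L4*, 3 for *CDKN1C* and 5 for *GNAS*. *MEST*, *PEG10* and *SNRPN* had none and were not analysed. The annotation assigns 570 other probesets to several genes, and these were not searched for any gene named below. A gene without a probeset here may therefore be among them.

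Imprinted genes are transcribed mainly from the copy inherited from one parent, because DNA methylation laid down in the egg or the sperm marks nearby control regions. Many of them act on growth before birth, and several are known best from the placenta. The region of chromosome 11 that holds *PHLDA2* and *CDKN1C* is the one altered in Beckwith-Wiedemann syndrome, an overgrowth disorder. In mice *Phlda2*, which encodes a small protein with a pleckstrin homology-like domain, restrains growth of the placenta. Expression arrays read the transcripts of both parental copies together, so nothing below speaks of one copy or the other.

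USF1 cells were transfected with a plasmid that holds the coding region of *USF1* fused to a His tag, and Empty vector cells with the plasmid alone. Both groups were HEK293T, a human embryonic kidney line with the large T antigen of SV40, and total RNA was taken 48 hours after transient transfection, with 3 arrays per group. *USF1* encodes a helix-loop-helix factor that binds the E-box CACGTG. Values were summarised by RMA and are in log2 units, so that a difference of 1 is a doubling. A probeset was called where its difference had an adjusted p-value under 0.05 in limma, a moderated linear model fitted to all probesets, with Benjamini-Hochberg adjustment.

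The arrays were not alike in technical measures. The 5' minus 3' value of the actin control probesets was between -0.681 and -0.493 in USF1 arrays, against -1.34, -1.04 and -0.516 in Empty vector replicates 1, 2 and 3. A control probeset for 18S ribosomal RNA lay between 7.28 and 8.80 in USF1 arrays, against 2.95, 8.13 and 7.97 in Empty vector replicates 1, 2 and 3. Empty vector replicate 1 was therefore the array that stood apart, and results are also given without it. The part of RNA quality in the differences below was not tested. The single probeset of *USF1* had 4.76, 4.94 and 4.68 in USF1 arrays and 4.37, 5.08 and 5.14 in Empty vector arrays. Its place relative to the cloned coding region is not stated, so it does not check the plasmid. The paper reports the over-expression at the protein level, by western blot. Of 10 genes known from HEK293 cells 6 were measured, among them the neurofilament gene *NEFM* with a mean of 10.4 in USF1 cells and 10.3 in Empty vector cells. At the brightest probeset of each gene 1 of the 6 was called, against 14.1% of all genes. That gene was *INA*, which was lower in USF1 cells (-0.39, adjusted p-value = 0.024 from limma). Of the 3 probesets of *NEFL*, 2 were called higher (0.38 and 0.41). None of the 7 markers of fibroblasts, 7 of blood cells and 5 of hepatocytes had a probeset assigned to it alone. Whether each array had a transfection of its own is not stated, so p-values measure no more than the spread between arrays, possibly a technical one.

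The annotated promoters of these genes were searched for the sequence that *USF1* binds, and 2 of them are printed, that of *NAP1L4*, the neighbour of *PHLDA2*, and the only one with CACGTG. The promoter table covers 250 bases before to 50 after each RefSeq transcription start and held 19 windows for 4 of the 7 genes, *NAP1L4*, *MEST*, *GNAS* and *SNRPN*. *PHLDA2*, *CDKN1C* and *PEG10* had no entry. Capitals mark CANNTG, the general E-box, which reads alike on both strands and includes CACGTG. Both are RefSeq sequences of GRCh38.p14, and the *NAP1L4* window at chr11:2992280-2992579 is on the minus strand and the *GNAS* window at chr20:58852466-58852765 on the plus strand.
NAP1L4: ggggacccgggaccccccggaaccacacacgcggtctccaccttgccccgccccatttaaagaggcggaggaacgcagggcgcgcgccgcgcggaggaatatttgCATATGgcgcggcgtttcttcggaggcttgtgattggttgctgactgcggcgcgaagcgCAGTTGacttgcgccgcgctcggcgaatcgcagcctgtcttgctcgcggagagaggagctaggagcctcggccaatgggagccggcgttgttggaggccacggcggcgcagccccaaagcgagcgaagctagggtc
GNAS: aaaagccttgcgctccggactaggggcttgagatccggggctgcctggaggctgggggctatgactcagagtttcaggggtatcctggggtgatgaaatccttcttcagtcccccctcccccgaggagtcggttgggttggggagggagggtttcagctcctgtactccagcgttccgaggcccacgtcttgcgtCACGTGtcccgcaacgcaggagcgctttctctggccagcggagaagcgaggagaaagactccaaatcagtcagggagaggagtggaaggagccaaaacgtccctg

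In the *GNAS* window CACGTG begins 55 bases before the annotated start, and it is 1 of 6 windows of that gene. The 4 windows of *NAP1L4*, the 5 of *MEST* and the 4 of *SNRPN* did not hold these letters. The printed *NAP1L4* window has 2 general E-boxes, CATATG and CAGTTG, and the other windows of *NAP1L4* have 1, 0 and 0. Of 34943 promoter windows of the same length, 7.23% held CACGTG and 68.7% held CANNTG, so that 1 of 19 windows with CACGTG is close to the share of all promoters. Some windows of the same gene overlap. Counted by gene, 1 of the 4 had a window with CACGTG, against 8.77% of 27305 genes, and 4 genes are too few to compare. A match is a description of the sequence and not evidence of a bound site.

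*PHLDA2* was higher in USF1 cells than in Empty vector cells, and the groups were far apart. Its log2 value was 6.91, 7.01 and 6.99 in USF1 arrays, against 5.22, 5.19 and 4.84 in Empty vector arrays. The 3 USF1 arrays lay within a narrow band, and Empty vector replicate 3 was the lowest of the 6 arrays. The mean was 6.97 ± 0.051 in USF1 cells and 5.08 ± 0.21 in Empty vector cells (SD, n = 3 each), a log2 difference of 1.89 (SE 0.11), or 3.70-fold. Of 9586 named genes, each read at its brightest probeset, 5 had a larger rise. The difference was between 1.77 and 1.96 when single arrays were left out. Against Empty vector replicate 3 alone, the Empty vector array whose actin value was not low, it was 2.13, with the spread then taken from the USF1 arrays.

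**Figure D1:**
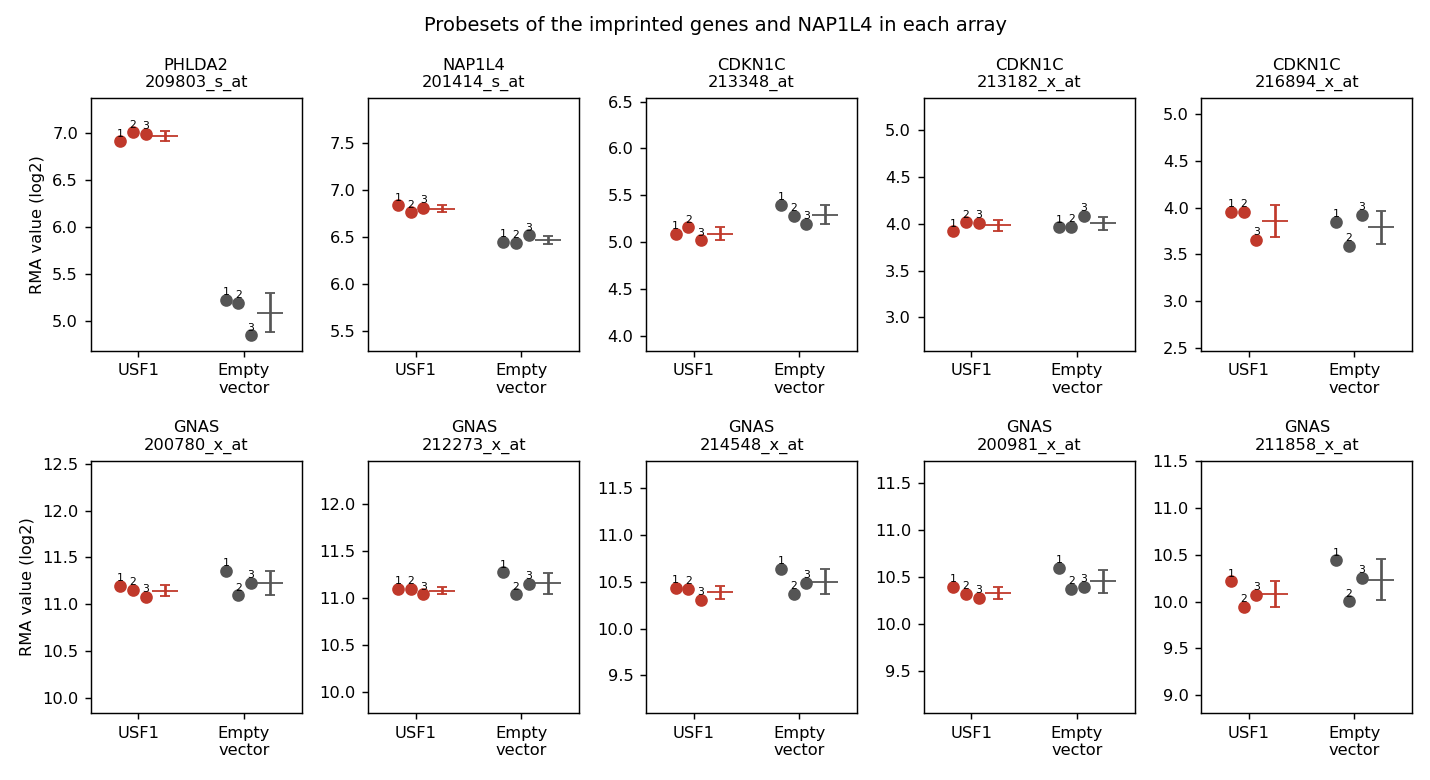
Log2 RMA values (vertical axis) of the 10 probesets of *PHLDA2*, *NAP1L4*, *CDKN1C* and *GNAS*, 1 point per array numbered by replicate, in red for USF1 and grey for Empty vector, with the mean and SD of 3 arrays beside the points. All panels span the same range, and only *PHLDA2* shows a wide gap, with 6.97 against 5.08.

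*NAP1L4* was higher as well, by a much smaller step. It encodes a histone chaperone of the nucleosome assembly family and is transcribed from both copies in most tissues. Its log2 value was 6.84, 6.76 and 6.81 in USF1 arrays, against 6.45, 6.44 and 6.52 in Empty vector arrays. The groups did not overlap, and replicates of each group lay close together. The log2 difference was 0.34 (SE 0.08), or 1.26-fold, against 3.70-fold for *PHLDA2*. It was between 0.32 and 0.36 without single arrays, and *NAP1L4* was no longer called in the absence of USF1 replicate 1 (0.32) or 3 (0.33), or of Empty vector replicate 2 (0.32) or 3 (0.36).

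*CDKN1C* did not share the rise of *PHLDA2*, from which it is separated by only 1 measured gene. It encodes the cyclin-dependent kinase inhibitor p57, which holds cells back from division and is expressed from the maternal copy. The brightest of its 3 probesets had 5.09, 5.16 and 5.02 in USF1 arrays, against 5.40, 5.28 and 5.20 in Empty vector arrays. The USF1 arrays were all below the Empty vector arrays, by a log2 difference of -0.20 (SE 0.09), and the probeset was not called. Without Empty vector replicate 1, its highest array, the difference was -0.15, and with arrays centred on their medians it was -0.14. The other probesets of *CDKN1C* were dim, with means of 3.98 in USF1 cells and 4.01 in Empty vector cells for one, and 3.85 and 3.79 for the other. Their groups overlapped, with log2 differences of -0.025 (SE 0.085) and 0.067 (SE 0.12).

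*GNAS* did not separate the groups at any of its 5 probesets. The locus encodes Gs alpha, which couples hormone receptors to adenylyl cyclase, and further transcripts from other promoters, some of which are made only from the maternal or the paternal copy. The brightest probeset had 11.20, 11.15 and 11.08 in USF1 arrays, against 11.36, 11.09 and 11.23 in Empty vector arrays. Another, of middle brightness among the 5, had 10.43, 10.42 and 10.31 in USF1 arrays, against 10.64, 10.37 and 10.49 in Empty vector arrays. Empty vector replicate 1 was the highest array at each of the 5 probesets, and the other Empty vector arrays lay among the USF1 arrays or close to them. The log2 differences ran from -0.15 (SE 0.13) to -0.076 (SE 0.091), none was called, and without Empty vector replicate 1 they lay between -0.052 and -0.017. The 5 probesets belong to 1 locus and are not taken as 5 independent measurements. The sources do not say which transcripts of the locus each one reads.

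In all, 2 of the 10 probesets were called, both higher in USF1 cells, against 11.9% of all 16569 probesets in either direction. At 3 of the 10 probesets the arrays of the groups did not overlap, namely *PHLDA2*, *NAP1L4* and the brightest of *CDKN1C*, against 36.1% of all probesets. As *PHLDA2* was chosen from this comparison, nothing is read from these counts.

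Apart from *NAP1L4*, no measured gene around *PHLDA2* was called higher. Of the 23 genes listed for its region, 11 were measured, and among the 8 that are not described above 2 were lower, none was higher, and the median log2 difference was -0.051. Over all 9586 genes 14.1% were called, 5.18% higher and 8.89% lower, with a median of -0.079. *CARS1*, cysteinyl-tRNA synthetase, next to *NAP1L4* among measured genes, had 9.37, 9.18 and 9.19 in USF1 arrays, against 9.60, 9.58 and 9.56 in Empty vector arrays. It fell by 0.33 on the log2 scale (SE 0.09, adjusted p-value = 0.0438 from limma), at the brightest of 3 probesets, while the others, at -0.30 and -0.052, were not called.

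*ZNF195*, a zinc finger gene at the far end of the list, fell more, to 5.19, 5.25 and 5.27 in USF1 arrays, against 5.91, 5.86 and 5.60 in Empty vector arrays. The difference came to -0.56 (SE 0.10, adjusted p-value = 0.0152 from limma). *SLC67A1*, also known as SLC22A18, a membrane transporter and the measured gene next to *PHLDA2* on the other side, stood at 0.13 (SE 0.11, adjusted p-value = 0.441 from limma). *OSBPL5*, an oxysterol-binding protein homologue that is imprinted in placenta, had 4.02, 3.96 and 4.50 in USF1 arrays, against 3.86, 3.78 and 3.81 in Empty vector arrays, and did not pass the test (0.34, SE 0.14, adjusted p-value = 0.142 from limma). Its high value came from USF1 replicate 3. Also in the region, *MRPL23* (-0.13), *CD81* (0.0065), *TSSC4* (-0.11) and *KCNQ1* (0.084) were not called. The call of *CARS1* was lost without any 1 of the 6 arrays and that of *ZNF195* without USF1 replicate 1, USF1 replicate 3 or Empty vector replicate 2, when 0 of the 8 genes were called.

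**Figure D2:**
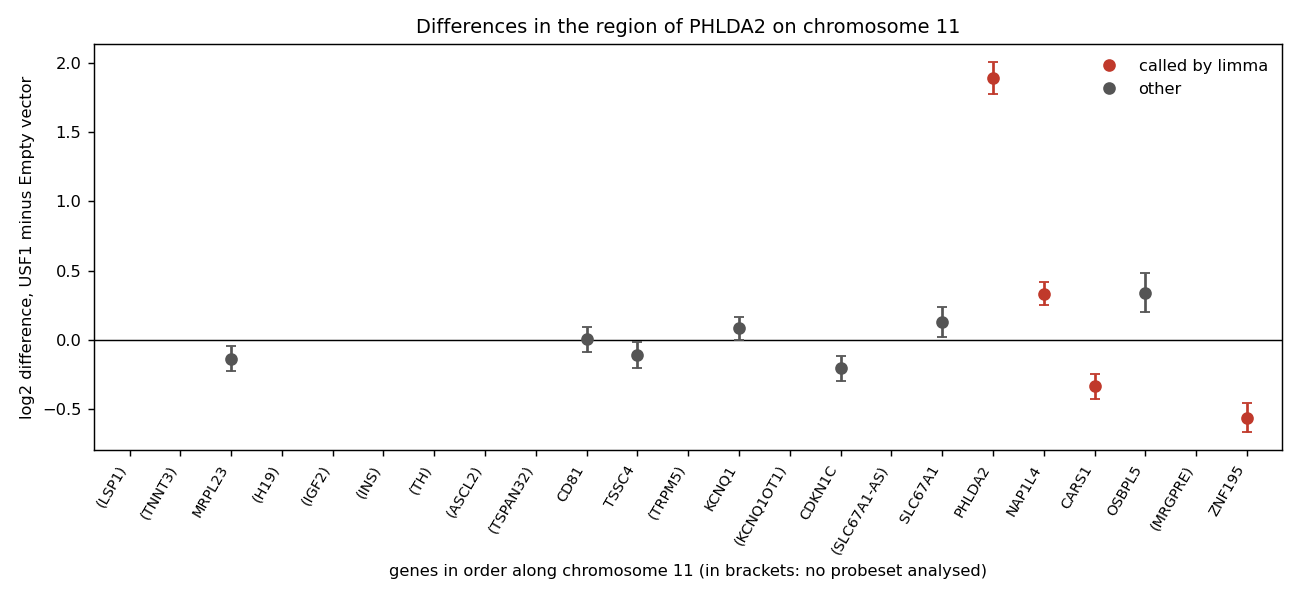
Log2 value in USF1 cells minus that in Empty vector cells (vertical axis), with bars for the standard error, for the genes of the *PHLDA2* region in their order along chromosome 11 (horizontal axis, evenly spaced and not to distance), in red where limma called it. *PHLDA2* stands at 1.89 between *SLC67A1* at 0.13 and *NAP1L4* at 0.34.

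Around the other members 3 genes were called, all lower, where 14.1% of all genes were called and most of these were lower. Among the 10 nearest measured genes of *MEST* on chromosome 7, *CEP41*, a centrosomal protein, fell by 0.58 (SE 0.12, adjusted p-value = 0.021 from limma) and *EXOC4*, a subunit of the exocyst, by 0.43 (SE 0.12, adjusted p-value = 0.0474 from limma). Among the 10 of *GNAS* on chromosome 20, *FAM217B* fell by 0.37 (SE 0.09, adjusted p-value = 0.0355 from limma). Around *MEST* 5 of the 10, and around *GNAS* 4 of the 10, had an unadjusted p-value under 0.05, against 3307 of all 9586 genes. Of the 10 nearest measured genes of *PEG10* on chromosome 7, 0 were called by limma and 5 had an unadjusted p-value under 0.05, and of 9 around *SNRPN* on chromosome 15, 0 were called and 2 had an unadjusted p-value under 0.05.

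Among other imprinted genes, 1 was called. Of 50 further genes known to be imprinted in some human tissue, 19 were measured, and 1 of these was lower and none higher, against 14.1% of all genes called. The median log2 difference was 0.072, against -0.079 over all genes. The one was *FAM50B*, a gene expressed from the paternal copy, with 6.78, 6.81 and 6.74 in USF1 arrays, against 7.16, 7.01 and 7.14 in Empty vector arrays. It fell by 0.33 on the log2 scale (SE 0.09, adjusted p-value = 0.0413 from limma), a call that was lost without any 1 of the 6 arrays. The list then held 0 calls, or 1 of another gene, *PLAGL1* without USF1 replicate 2 and *PPP1R9A* without Empty vector replicate 1. At an unadjusted p-value under 0.05 there were 6 of the 19, 3 higher and 3 lower, against 3307 of all 9586 genes, 1018 higher and 2289 lower.

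*PLAGL1*, a zinc finger transcription factor expressed from the paternal copy, came nearest to the threshold from above. At its brightest probeset it had 8.01, 7.73 and 8.04 in USF1 arrays, against 7.22, 7.63 and 7.52 in Empty vector arrays. The difference came to 0.47 (SE 0.13, adjusted p-value = 0.0523 from limma), with 0.44 and 0.27 at its other probesets, whose groups overlapped. With arrays centred on their medians, *PLAGL1* was called (0.54, adjusted p-value = 0.0397 from limma), as was *PPP1R9A* next to *PEG10* (0.49, adjusted p-value = 0.0353 from limma, against 0.42 and 0.0604 as deposited), and *FAM50B* was not (-0.26, adjusted p-value = 0.0785 from limma). *SGCE*, which shares its promoter region with *PEG10*, had -0.47 (SE 0.19, adjusted p-value = 0.136 from limma). *UBE3A*, the ubiquitin ligase of Angelman syndrome, lay between -0.43 and -0.086 at its 4 probesets, and none was called. *H19*, *IGF2* and *KCNQ1OT1* were among the 31 genes of this list with no probeset assigned to them alone.

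**Figure D3:**
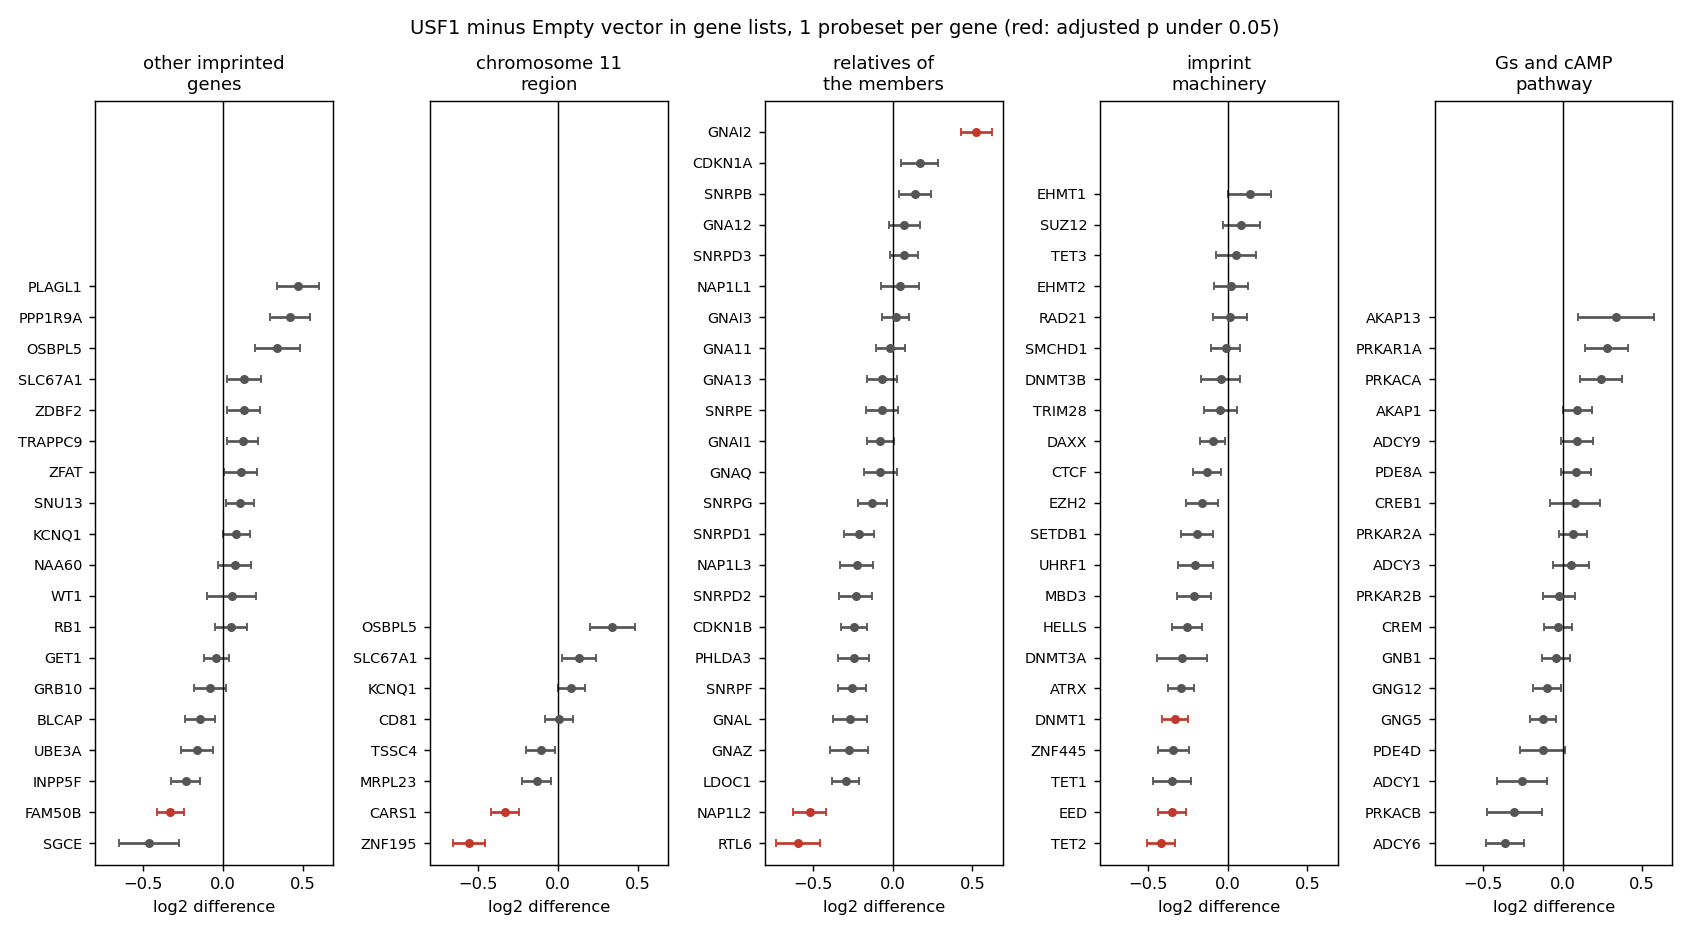
Each row is a measured gene of 5 lists, members left out, at its brightest probeset (vertical axis). Points give the log2 value in USF1 cells minus that in Empty vector cells (horizontal axis), bars the standard error, and red a call by limma. The other imprinted genes show 1 red point, *FAM50B* at -0.33, and the Gs and cAMP pathway shows 0.

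Relatives of the members were also compared. Of 24 measured relatives, 1 was higher and 2 were lower, near the 14.1% called over all genes, and the median log2 difference was -0.10, against -0.079 over all genes. The closest measured relative of *PHLDA2*, the p53 target *PHLDA3*, was not called (-0.25, SE 0.10, adjusted p-value = 0.12 from limma), and *PHLDA1* had no probeset assigned to it alone. The other inhibitors of the family of *CDKN1C*, *CDKN1A* (0.17, SE 0.12, adjusted p-value = 0.351 from limma) and *CDKN1B* (-0.24, SE 0.08, adjusted p-value = 0.078 from limma), were not called either.

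*GNAI2*, a G alpha subunit that inhibits adenylyl cyclase, rose to 6.45, 6.23 and 6.31 in USF1 arrays, against 5.70, 5.86 and 5.85 in Empty vector arrays (0.53, SE 0.10, adjusted p-value = 0.0152 from limma). The other 8 measured G alpha genes did not pass. *NAP1L2*, a nucleosome assembly protein of the brain, fell by 0.52 (SE 0.10, adjusted p-value = 0.0185 from limma), where its relative *NAP1L4* was higher, and *NAP1L1* had differences between 0.011 and 0.30 at its 6 probesets with none called. *RTL6*, derived from a retrotransposon like *PEG10*, fell by 0.60 (SE 0.14, adjusted p-value = 0.0308 from limma). Without USF1 replicate 1 or USF1 replicate 3, 0 of these relatives were called, and *GNAI2* alone was called when Empty vector replicate 2 was left out.

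The share of calls among genes that set or keep imprints was close to that of all genes. Of 22 measured factors for DNA methylation and chromatin at imprinted regions, 3 were lower and none higher, against 14.1% of all genes called, of which 852 of 1349 were lower. At an unadjusted p-value under 0.05, 7 were lower and 0 higher, against 2289 lower and 1018 higher of all 9586 genes. The median log2 difference was -0.18, against -0.079 over all genes. *DNMT1*, which copies DNA methylation to the new strand after replication, had 8.67, 8.66 and 8.65 in USF1 arrays, against 9.06, 8.95 and 8.95 in Empty vector arrays. It fell by 0.33 (SE 0.08, adjusted p-value = 0.0357 from limma). *TET2*, an enzyme that oxidizes methylated cytosine, fell by 0.42 (SE 0.09, adjusted p-value = 0.024 from limma) and *EED*, a subunit of Polycomb complex PRC2, by 0.35 (SE 0.09, adjusted p-value = 0.036 from limma).

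The zinc finger gene *ZNF445*, which guards imprints, did not pass (-0.34, SE 0.10, adjusted p-value = 0.0548 from limma), and neither did *CTCF* (-0.13, SE 0.09, adjusted p-value = 0.358 from limma) or *TRIM28* (-0.046, SE 0.11, adjusted p-value = 0.797 from limma). *DNMT1* was not called without any 1 of the 6 arrays. The count was 0 without USF1 replicate 1, USF1 replicate 3 or Empty vector replicate 2. It was 1 when Empty vector replicate 3 was left out or with arrays centred on their medians, in which case only *TET2* was called.

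Of 18 measured genes of the Gs pathway downstream of *GNAS*, from adenylyl cyclases to protein kinase A and CREB, 0 were called by limma. Over all genes 14.1% were called. The median log2 difference was 0.014, against -0.079 over all genes. At an unadjusted p-value under 0.05 there was 1, against 3307 of all 9586 genes. It was the adenylyl cyclase *ADCY6* (-0.36, SE 0.12, adjusted p-value = 0.0785 from limma). The methods' t-test, unadjusted, gave 0, against 3419 or 4265 of all 16569 probesets at unequal or equal variances.

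By profile over the 6 arrays, the genes nearest to *PHLDA2* were *CDH1*, *HBEGF*, *ICAM3*, *DRC8* and *RGCC*. Likeness was measured as the root mean square difference between log2 values, each taken relative to the Empty vector mean of its gene, and it was 0.136 for *CDH1* (E-cadherin), 0.164 for *HBEGF* (a ligand of the EGF receptor), 0.175 for *ICAM3* (an adhesion molecule), 0.206 for *DRC8* and 0.222 for *RGCC* (a regulator of the cell cycle). *CDH1* had 6.70, 6.67 and 6.58 in USF1 arrays, against 5.10, 4.81 and 4.74 in Empty vector arrays. As in *PHLDA2*, replicate 3 was the lowest Empty vector array of *CDH1*, *ICAM3*, *DRC8* and *RGCC*, whereas in *HBEGF* replicate 2 was. The genes are like *PHLDA2* by construction, since the measure picks genes with a rise of similar size and also with similar values among the Empty vector arrays.

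**Figure D4:**
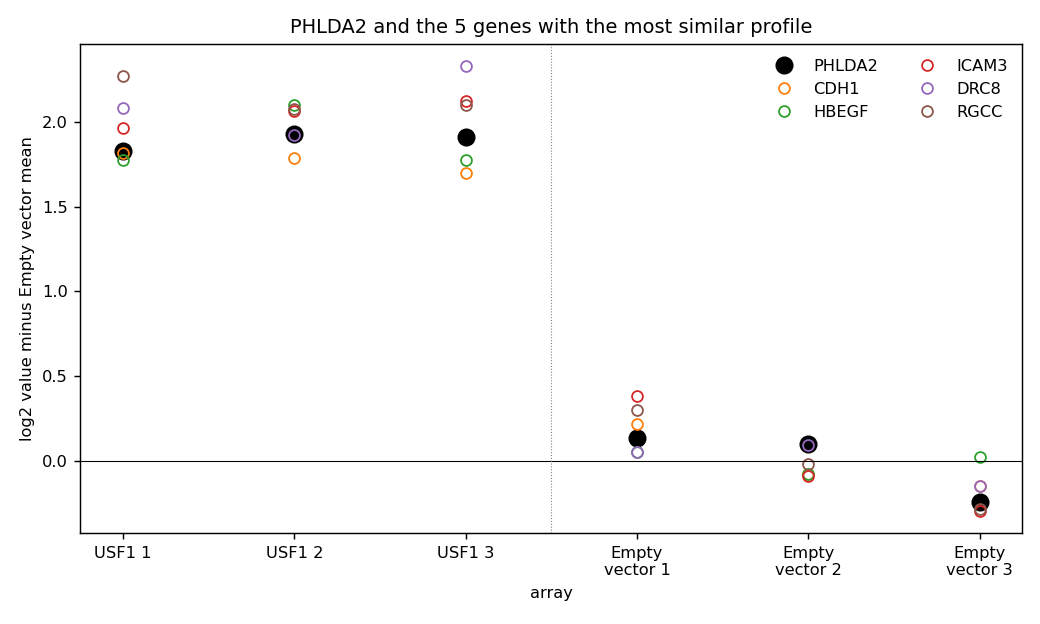
Log2 value minus the Empty vector mean of the gene (vertical axis) in each of the 6 arrays (horizontal axis) for *PHLDA2* (filled) and the 5 genes with the most similar profile (open). In the USF1 arrays all 6 genes lie far above the Empty vector arrays, and *CDH1*, at 0.136 from *PHLDA2*, follows it most closely.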

How the data were processed

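Gene expression was measured with Affymetrix arrays in HEK293T cells, 3 transfected with *USF1* and 3 with Empty vector, grouped and numbered by their titles. The deposited values are log2 expression values. According to the methods, the authors imported the arrays into R 2.8.0 with justRMA, masked mis-targeted and nonspecific probes with an alternate CDF, dropped probesets left with too few probes or seldom detected, and removed batch effects by ComBat. The sources do not name the batches. How this correction affects p-values was not tested, since the fit has no term for batch. The number of arrays limits the precision.

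Probesets with 1 gene in the platform annotation (15099, against 570 with several and 900 with none) were named. Of these, 15098 were matched by Entrez ID to GRCh38.p14 and took the symbol given there. A gene was represented by its probeset with the highest mean among those with 1 gene, and members by all their probesets with 1 gene. Differences were fitted over all 16569 probesets, control probesets included, with lmFit and eBayes of limma 3.58.1 in R 4.3.3, without covariates, with Benjamini-Hochberg adjustment. The procedure was tested on simulated data. Genes were named if they were members, were called in a list (at most 8 per list), lay in the *PHLDA2* region or were among the 5 nearest profiles. Others were named to complete a group, after their values were seen. Members and lists were chosen with earlier results of these data known. Alternatives were other normalizations, priors and tests, a filter on dim probesets, no control probesets, a replicate block, a linear scale, any probeset of a gene, and leaving out arrays.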

Additional observations from a re-analysis of the deposited data

How the results depend on the processing

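The log2 difference of *PHLDA2* was between 1.77 and 1.96 without single arrays and moved to 2.13 only without Empty vector replicates 1 and 2 together, an alternative chosen after seeing the data. Of the 2 called member probesets, 1 to 2 were called without single arrays. A t-test after Benjamini-Hochberg called 0 with unequal and 1 with equal variances. The methods name a Student's t-test, but the degrees of freedom listed in the paper are fractional, as with unequal variances. Without single arrays the calls over all probesets ranged from 369 to 2222 (219 to 877 higher, 147 to 1569 lower), other imprinted genes from 0 to 1, genes of the region from 0 to 1, relatives from 0 to 3 and imprint machinery from 0 to 3. Without Empty vector replicates 1 and 2 the calls were 277 (217 higher, 60 lower), with 0 in each of these 4 lists.

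The t-test gave 3419 calls unadjusted with unequal variances (1160 higher, 2259 lower, with 4 other imprinted genes, 6 relatives, 6 of the imprint machinery) and 4265 with equal variances (1395 higher, 2870 lower, with 4, 7 and 7). After Benjamini-Hochberg it gave 1 (0 higher, 1 lower) and 160 (84 higher, 76 lower), with 0 in all lists. Higher values made up 36.2% of the calls, 56.1% with arrays centred on their medians (815 lower; 2 other imprinted genes, 1 of the region, 1 of the machinery) and 50.4% after a further quantile normalization (2 other imprinted genes). A prior with trend and robust estimation called 2 other imprinted genes, 6 relatives and 5 of the machinery, and leaving out the dimmest 25% of probesets 2 and 5 of the first and last. Same-numbered arrays had deviations correlated at 0.096, 0.25 and 0.13, and the sources do not say whether they share more than a number. With the replicate block 1967 probesets were lower, and 2 other imprinted genes, 5 of the machinery and 1 of the Gs pathway were called. The cause of these changes was not tested.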

Other observations

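Placenta is the tissue in which *PHLDA2* is known best, and of 14 markers of placental trophoblast 3 were measured, all transcription factors that other cell types express as well. *TFAP2C* had 4.85, 4.94 and 4.87 in USF1 arrays, against 5.52, 5.39 and 5.22 in Empty vector arrays, and fell by 0.49 on the log2 scale (SE 0.10, adjusted p-value = 0.021 from limma). *GATA3* had 5.58, 5.44 and 5.23 in USF1 arrays, against 5.77, 5.92 and 5.94 in Empty vector arrays, and fell by 0.46 (SE 0.11, adjusted p-value = 0.0344 from limma). *TFAP2A* had 0.077 (SE 0.09, adjusted p-value = 0.58 from limma). The call of *TFAP2C* was lost without USF1 replicate 1, USF1 replicate 3 or Empty vector replicate 2, and that of *GATA3* without any array but Empty vector replicate 1.

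The probesets of *HELLS*, a chromatin remodeller that supports DNA methylation, gave unlike values. The brightest of 5 was not called (-0.26, SE 0.09, adjusted p-value = 0.0996 from limma). Another had 4.68, 4.57 and 4.67 in USF1 arrays, against 5.78, 5.90 and 5.97 in Empty vector arrays, fell by 1.24 (SE 0.09, adjusted p-value = 0.000422 from limma) and stayed called whichever single array was left out. The dimmest called probeset fell by 0.46 (SE 0.12, adjusted p-value = 0.0384 from limma), and the others were at -0.085 and 0.12. These probesets were singled out after their values were seen, and the sources do not say which transcripts they read.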
